A study of Rattus norvegicus with 36 samples.

Results

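Solute carriers are the largest group of membrane transporters, and their genes carry symbols that begin with Slc and a family number. The genes described here are those whose symbol on the array starts that way, without 1 anion exchanger gene that is not analysed here. They were found on 296 of the 21792 probes of the array and stood for 292 genes, against 13315 genes with a symbol in all. The criterion for a detected probe was a detection p-value under 0.05 on 6 or more of the 36 arrays. Of the 292 genes 192 were detected and tested, among 9078 tested genes. The other 100 had a detected signal on fewer than 6 arrays, 72 of them on none, while 135 genes were detected on all 36 arrays.

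The samples were lungs of male CDF Fisher 344 rats, 3 months old, with no genetic change named in the labels. The rats inhaled crystalline silica at 15 mg/m3 for 3, 6 or 12 weeks, or air (0 mg/m3) for the same 3, 6 or 12 weeks, with 6 rats in each of the 6 groups and air rats of its own for each week. They were exposed 6 h a day and 5 days a week, and 375 ng of total lung RNA per rat was labelled for an Illumina BeadChip array, 1 array per rat. The question of the design is how lung gene expression changes during inhalation of silica, a dust that scars the lung, and how the change depends on the length of exposure.

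Solute carriers move amino acids, sugars, metals, phosphate, anions, lactate, nucleosides, vitamins and drugs across the plasma membrane or the membranes of lysosomes, mitochondria and the Golgi apparatus. Most work as exchangers or are driven by the gradients of sodium, protons or potential. In the lung they supply type II cells with phosphate and lipid precursors, clear amino acids and peptides from the fluid that lines the airspace, and serve macrophages that handle iron, arginine and lactate.

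All levels below are log2 values after background correction and quantile normalisation, and each rat is 1 value. Changes are silica minus air of the same week on the log2 scale with the standard error (SE) of a linear model over all 36 arrays, n = 6 per group. A gene was called at an adjusted p under 0.05 (limma, Benjamini-Hochberg over all 9078 genes). The number of arrays limits the precision of every value, and levels of different probes are not compared. The mean raw intensity of an array lay between 345 and 519, with 48.7% to 53.1% of all probes detected. The 12 arrays of the 6-week set stood apart from the rest on the first principal component, silica and air together. At the other weeks air replicate 5 at 3 weeks and silica replicate 3 at 12 weeks also stood apart. The counts of transporter genes higher and lower at the week of each of them are also given without it. Silica and air rats are compared within a week throughout, and for the 6-week set the week and the set of arrays cannot be told apart. Markers of type I, type II and endothelial cells were detected in these samples, as in lung.

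The promoters of Slc13a2, Slc16a11 and Slc7a7 are shown because these genes had the largest changes among the rises called at every week and have an entry in the RefSeq promoter table (GRCr8). Each window spans 300 bases around the transcript start used by that table, which lies inside the annotated gene span in all 3. Slc13a2 lies on chromosome 10 from 63789874 to 63817441, Slc16a11 on chromosome 10 from 55427773 to 55431678 and Slc7a7 on chromosome 15 from 31792122 to 31852732. Capitals mark the motifs that a search of both strands found. Positions count from the transcript start. In Slc13a2 the motif is a TATA box (TATANAA) at -45.
Slc13a2 promoter, chr10:63817135-63817434, minus strand: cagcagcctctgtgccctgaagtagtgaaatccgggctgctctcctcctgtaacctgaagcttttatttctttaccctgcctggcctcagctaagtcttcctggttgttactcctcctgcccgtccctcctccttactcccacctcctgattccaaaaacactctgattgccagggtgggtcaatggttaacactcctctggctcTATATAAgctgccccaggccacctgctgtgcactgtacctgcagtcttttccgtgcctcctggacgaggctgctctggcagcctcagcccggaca
In Slc16a11 it is a C/EBP motif (TTGCNNAA), read on the other strand, at -245.
Slc16a11 promoter, chr10:55427705-55428004, plus strand: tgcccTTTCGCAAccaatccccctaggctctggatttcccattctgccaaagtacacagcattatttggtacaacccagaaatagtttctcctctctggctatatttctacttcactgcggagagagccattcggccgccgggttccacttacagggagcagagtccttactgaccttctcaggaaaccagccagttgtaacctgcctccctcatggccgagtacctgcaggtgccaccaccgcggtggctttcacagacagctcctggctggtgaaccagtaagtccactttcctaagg
Slc7a7 holds an antioxidant response element (TGACNNNGC) at -192 and a C/EBP motif at -94.
Slc7a7 promoter, chr15:31835634-31835933, minus strand: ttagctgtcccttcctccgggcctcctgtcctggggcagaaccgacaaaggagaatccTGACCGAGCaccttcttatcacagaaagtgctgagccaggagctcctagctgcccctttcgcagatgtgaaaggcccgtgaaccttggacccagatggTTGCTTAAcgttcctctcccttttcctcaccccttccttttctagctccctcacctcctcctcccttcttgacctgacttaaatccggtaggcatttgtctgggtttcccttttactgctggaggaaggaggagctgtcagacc
The 3 windows share no motif that all of them hold. Among all 33469 promoters 12.9% hold the TATA box, 10.6% the C/EBP motif and 12.1% the antioxidant response element. Promoters were matched for 153 of the 192 tested genes, of which 3.27%, 13.7% and 18.3% hold these motifs in the same order. The search also covered AP-1 (TGANTCA), PU.1 (GAGGAAGT) and the E-box (CACGTG), motifs that 7.33%, 2.42% and 6.42% of all promoters hold and these windows do not.

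Silica-exposed lungs had more transporter genes higher than lower at every week. At 3 weeks 28 of the 192 genes were called higher (14.6%) and 5 lower (2.6%), against 7.51% and 6.08% of all tested genes. At 6 weeks 37 were higher (19.3%) and 8 lower (4.17%), against 8.8% and 8.5%. At 12 weeks 36 were higher (18.8%) and 14 lower (7.29%), against 11.7% and 14.2%. In both directions together 17.2%, 23.4% and 26% of the transporter genes were called at 3, 6 and 12 weeks, and 13.6%, 17.3% and 25.9% of all genes. The share of calls that were higher was 84.8%, 82.2% and 72% at the 3 weeks. Over all tested genes 682 calls were higher and 552 lower at 3 weeks, 799 and 772 at 6 weeks, and 1061 and 1290 at 12 weeks. When the arrays were scaled to a common median in place of quantile normalisation the transporter shares were 100%, 86.4% and 61.8%. The counts were then 22 higher and 0 lower at 3 weeks, 19 and 3 at 6 weeks and 21 and 13 at 12 weeks. That scaling moved the calls of all genes too, to 574 higher and 92 lower at 3 weeks, 487 and 205 at 6 weeks, and 604 and 1256 at 12 weeks. The median change of the 192 genes was 0.035, 0.019 and 0.026 at 3, 6 and 12 weeks, beside -0.0012, -0.016 and -0.016 for all genes. Under median scaling the medians were 0.067, 0.029 and -0.0029 for the 192 genes and 0.049, 0.0038 and -0.050 for all genes.

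Most changes were small. Of the called genes 29 of 33 at 3 weeks, 40 of 45 at 6 weeks and 44 of 50 at 12 weeks changed by less than 1.5-fold. The 6 silica rats lay above all 6 air rats in 10 transporter genes at 3 weeks, 18 at 6 weeks and 18 at 12 weeks (5.21%, 9.38% and 9.38%, against 3.89%, 5.17% and 5.62% of all genes). They lay below all air rats in 2, 6 and 5 genes (1.04%, 3.12% and 2.6%, against 2.3%, 4.65% and 5.77%). In Slc13a2, Slc16a11, Slc7a7, Slc47a1, Slc6a20a and Slc11a2 all silica rats lay above all air rats at each of the 3 weeks. The share of all genes apart at each of the 3 weeks was not counted, so this list has no share to stand against. Genes called higher at every week numbered 16 (8.33%, against 4.26% of all genes), and Slc38a5, Slc7a10 and Slc22a5 were called lower at every week, against 2.3% of all genes. At 1 week or more 73 genes (38.0%) were called, against 35.8%, and 37 of them at a single week. The number lower at 3 weeks was 2 without silica replicate 4 of that week and 3 without silica replicate 1 or 6 or any of the air replicates 2, 3 and 5. Without air replicate 5 at 3 weeks 20 genes were higher and 3 lower at that week. Without silica replicate 3 at 12 weeks 32 were higher and 14 lower at that week.

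**Figure D1:**
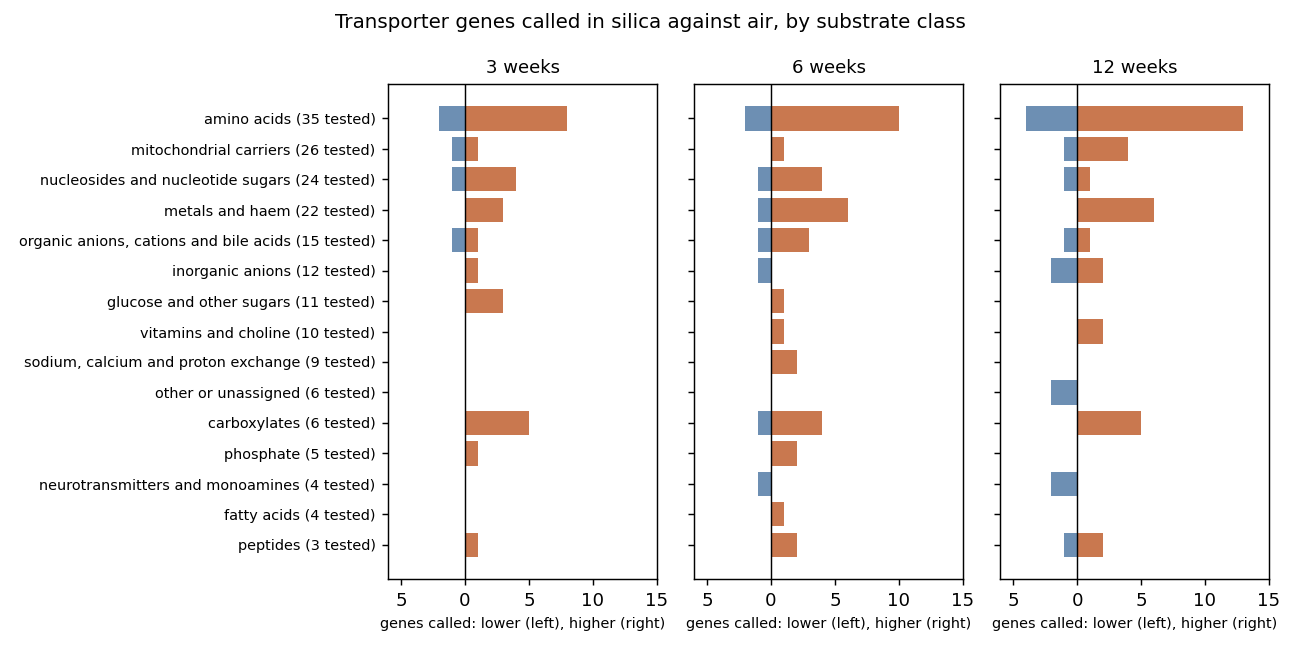
Number of transporter genes called lower (left of 0, blue) and higher (right of 0, orange) in silica against air rats at 3, 6 and 12 weeks, by substrate class, with the number of tested genes in each class. Amino acid transporters have the most calls, with 13 higher and 4 lower of 35 at 12 weeks, and 5 of the 6 carboxylate transporters are higher at 3 and at 12 weeks. The shares of all genes are 7.51% higher at 3 weeks, and 11.7% higher and 14.2% lower at 12 weeks.

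Marker genes of several cell types moved with silica in the same arrays, and their part in the transporter results was not tested. In whole lung RNA, fewer cells of a type and less RNA per cell cannot be told apart. Beside all marker counts below, 7.51%, 8.8% and 11.7% of all tested genes were higher at 3, 6 and 12 weeks. The shares lower were 6.08%, 8.5% and 14.2%. Of 6 tested alveolar macrophage markers 4 were higher at each week, though not the same genes. Atp6v0d2, Gpnmb and Trem2 were called at every week, Siglec5 at 3 weeks alone and Mrc1 at 6 and 12 weeks. Fabp4 was not called at any week, with changes of 0.13, -0.40 and 0.0087. The summed level of the 6 markers (normalised linear scale) ran from 5603 to 6651 in silica rats and from 3008 to 4648 in air rats at 12 weeks, and Marco was not detected. At 3 weeks the sums were 5122 to 5719 in silica and 3160 to 4263 in air rats, and at 6 weeks 4303 to 6624 in silica and 2635 to 4354 in air rats. Neutrophil markers had 2 of 6 higher at each week, led by S100a8, with sums of 2693 to 3434 in silica and 2127 to 2816 in air rats at 3 weeks, 2845 to 3212 in silica and 2154 to 2411 in air rats at 6 weeks, and 3290 to 4322 in silica and 2563 to 3425 in air rats at 12 weeks. The other called neutrophil marker was Fcgr3a at 3 weeks and Cxcr2 at 6 and 12 weeks. S100a9 and Elane were not detected.

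Type II cell markers had 2, 5 and 5 of 7 higher at 3, 6 and 12 weeks. Their sums were 64320 to 68660 in silica and 56940 to 62190 in air rats at 3 weeks, 68330 to 75170 in silica and 58600 to 64500 in air rats at 6 weeks, and 66390 to 73520 in silica and 57510 to 65390 in air rats at 12 weeks. Endothelial markers went the other way, with 5 of 7 lower at each week. Tek was among them at 3 weeks alone and Tie1 at 6 and 12 weeks, and Cdh5 was not called. The endothelial sums were 23140 to 24210 in silica and 26650 to 30020 in air rats at 3 weeks, 20770 to 23140 in silica and 25430 to 27950 in air rats at 6 weeks, and 20840 to 23220 in silica and 26830 to 29300 in air rats at 12 weeks. Type I cell markers had 3, 2 and 3 of 7 lower, with sums of 26670 to 28940 in silica and 29160 to 32640 in air rats at 3 weeks, 30060 to 32360 in silica and 32440 to 34620 in air rats at 6 weeks, and 26880 to 30400 in silica and 30370 to 32190 in air rats at 12 weeks. Aqp5 was called lower at every week, Cav1 at 3 weeks alone, Hopx at 3 and 12 weeks and Ager at 6 and 12 weeks. Pdpn, Rtkn2 and Akap5 were not called at any week. At 12 weeks the changes of Cav1 and Akap5 were upward, 0.17 and 0.30, and not called. T and NK cell markers had 2, 5 and 4 of 7 lower, with sums of 4325 to 5722 in silica and 5507 to 6288 in air rats at 3 weeks, 4121 to 5732 in silica and 5600 to 6689 in air rats at 6 weeks, and 4580 to 5325 in silica and 5723 to 7342 in air rats at 12 weeks. Most of these falls were in the NK and cytotoxic genes Klrd1, Nkg7, Gzmb and Prf1. The T cell genes Cd3e and Cd3g were not called at any week, and Cd3d was called at 6 weeks alone (-0.29). At 12 weeks the changes of Cd3d, Cd3e and Cd3g were -0.075, 0.047 and 0.0010. No club cell or heart muscle marker was called at any week by limma, with 1 club cell marker and no heart marker at an unadjusted p under 0.05. Heart muscle markers differed widely between rats of both groups, with sums of 159 to 10160 in silica and 143 to 9632 in air rats over all weeks. Of B cell markers 1 of 3 was lower at 6 weeks, of ciliated cell markers 1 of 4 was lower at 12 weeks, and of red cell markers 1 of 4 was lower at 12 weeks.

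The carboxylate transporters, which carry lactate, ketone bodies, short fatty acids and citric acid cycle intermediates, had the largest median change of the classes. Of 6 tested genes 5 were higher at 3 weeks, 4 at 6 weeks and 5 at 12 weeks, against 7.51%, 8.8% and 11.7% of all genes. The class medians were 0.42, 0.44 and 0.64. Slc13a2, the sodium-coupled transporter of succinate and citrate known from kidney and gut, changed most of all 192 genes. At 3 weeks its lowest, median and highest levels were 8.16, 8.36 and 8.61 in silica rats, against 6.83, 7.42 and 7.70 in air rats. At 6 weeks they were 8.04, 8.38 and 8.61 in silica rats and 6.58, 6.74 and 7.21 in air rats. At 12 weeks they were 8.52, 8.72 and 9.04 in silica rats and 7.1, 7.54 and 7.72 in air rats. The groups did not overlap at any week, and the gene rose 2.03-fold (log2 1.02 ± 0.13, adjusted p = 9.30e-07), 2.87-fold (1.52 ± 0.13, 9.78e-11) and 2.39-fold (1.26 ± 0.13, 4.05e-09) at 3, 6 and 12 weeks.

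Slc16a11, which encodes the monocarboxylate transporter MCT11, followed the same course across the weeks. Its levels at 6 weeks were 8.39, 8.53 and 8.70 in silica rats, against 6.99, 7.51 and 7.81 in air rats. At 3 weeks they ran from 8.60 to 9.18 in silica and from 7.72 to 8.30 in air rats, and at 12 weeks from 8.57 to 9.14 in silica and from 7.99 to 8.20 in air rats. No silica rat overlapped an air rat, though silica replicate 3 at 12 weeks lay below the other silica rats. The gene rose 1.71-fold (0.77 ± 0.12, adjusted p = 3.82e-05), 2.14-fold (1.10 ± 0.12, 3.14e-08) and 1.82-fold (0.87 ± 0.12, 2.04e-06). In the RefSeq annotation Slc16a11 lies within the span of Slc16a13, which encodes MCT13. The separate probe of Slc16a13 ran the other way at 6 weeks (-0.21 ± 0.074, adjusted p = 0.0428), a call that was lost on leaving out any of 8 of the 12 arrays of that week, with adjusted p up to 0.120.

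Slc16a3 encodes MCT4, the lactate exporter of glycolytic cells. At 12 weeks its lowest, median and highest levels were 10.24, 10.47 and 10.71 in silica and 9.56, 9.61 and 9.81 in air rats, and at 6 weeks 10.37, 10.47 and 10.60 in silica and 9.88, 9.97 and 10.06 in air rats. The groups were apart at both of these weeks and overlapped at 3 weeks, when silica rats ran from 9.87 to 10.34 and air rats from 9.59 to 10.01. The rise was 1.28-fold (0.36 ± 0.076, adjusted p = 0.00138) at 3 weeks, 1.42-fold (0.50 ± 0.076, 6.59e-06) at 6 weeks and 1.75-fold (0.81 ± 0.076, 7.61e-10) at 12 weeks. Slc16a1 encodes MCT1, which takes lactate up or releases it. It rose at 3 weeks (0.35 ± 0.089, adjusted p = 0.00711) and at 12 weeks (0.47 ± 0.089, 0.000122), when silica rats ran from 8.68 to 9.11 and air rats from 8.14 to 8.73. At 6 weeks its change of 0.23 ± 0.089 missed the threshold (adjusted p = 0.0693). Slc5a8, a sodium-coupled monocarboxylate transporter, rose at 3 weeks (0.48 ± 0.12, adjusted p = 0.00741), with 6.39, 6.49 and 6.61 in silica and 5.59, 6.05 and 6.35 in air rats, and at 12 weeks (0.41 ± 0.12, 0.0135). Its call at 6 weeks (0.38 ± 0.12, 0.0288) was lost without air replicate 3 (adjusted p = 0.122), air replicate 6 (0.0630), silica replicate 4 (0.0651) or silica replicate 5 (0.0822).

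**Figure D2:**
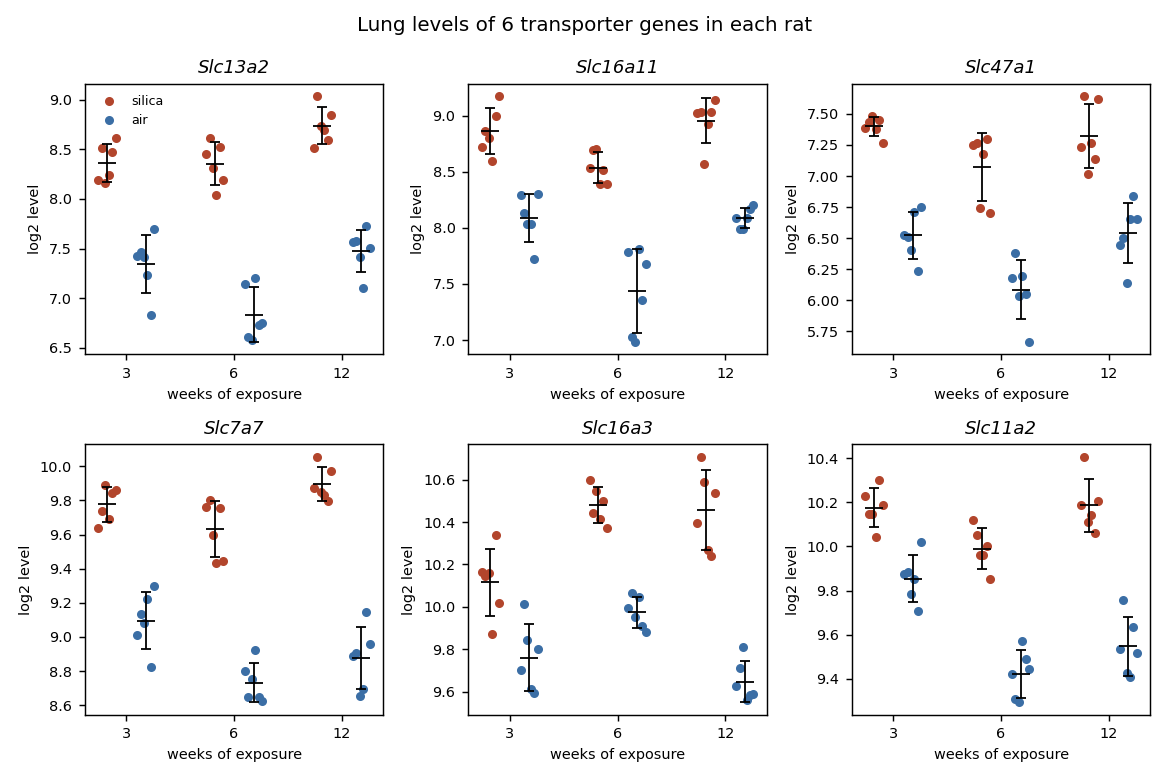
Log2 level of 6 transporter genes in each rat (points), with the group mean and SD (bars), for silica (red, left) and air (blue, right) rats at 3, 6 and 12 weeks, n = 6 per group. Silica rats of Slc13a2, Slc16a11, Slc47a1, Slc7a7 and Slc11a2 lie above all air rats at every week, and those of Slc16a3 do so at 6 and 12 weeks.

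Glycolysis genes outside the family were higher in part. Of 14 tested genes 3 were higher at 3 weeks, 6 at 6 weeks and 5 at 12 weeks, and 1 was lower at 12 weeks. The shares of all genes were 7.51%, 8.8% and 11.7% higher at 3, 6 and 12 weeks and 14.2% lower at 12 weeks. Hexokinase 3, the form of white blood cells, rose by 0.70, 0.92 and 0.83 at 3, 6 and 12 weeks, and the platelet-type phosphofructokinase Pfkp by 0.36, 0.36 and 0.30. Hk2, the inducible hexokinase, rose by 0.34 at 6 weeks and 0.37 at 12 weeks, and the enolase gene Eno1 by 0.34 at 6 weeks.

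Amino acid transporters made up the largest class, with 35 tested genes. At 3 weeks 8 were higher and 2 lower, at 6 weeks 10 and 2, and at 12 weeks 13 and 4. Among all genes 7.51%, 8.8% and 11.7% were higher and 6.08%, 8.5% and 14.2% lower at these weeks. Over the 3 weeks 19 of the 35 were called at least once, against 35.8% of all genes. The class median was 0.064, 0.037 and 0.066.

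Slc7a7 encodes y+LAT1, which with the heavy chain 4F2hc releases arginine and lysine in exchange for neutral amino acids, and whose human defect causes lysinuric protein intolerance with lung disease. At 12 weeks its lowest, median and highest levels were 9.80, 9.86 and 10.06 in silica rats, against 8.66, 8.90 and 9.15 in air rats. The groups were also apart at 6 weeks, with 9.43, 9.68 and 9.80 in silica and 8.62, 8.70 and 8.92 in air rats, and at 3 weeks, with 9.64, 9.79 and 9.89 in silica and 8.83, 9.11 and 9.30 in air rats. Slc7a7 rose 1.60-fold (0.68 ± 0.080, adjusted p = 3.20e-07), 1.87-fold (0.90 ± 0.080, 3.39e-10) and 2.03-fold (1.02 ± 0.080, 1.60e-11) at 3, 6 and 12 weeks. Its heavy chain gene Slc3a2 was not called at any week, with changes of -0.020 ± 0.048, -0.11 ± 0.048 and -0.12 ± 0.048, and silica rats at 12 weeks ran from 11.53 to 11.75 against 11.66 to 11.90 in air rats.

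Slc6a20a, the carrier of proline and other imino acids, had levels of 6.13, 6.27 and 6.42 in silica and 5.63, 5.78 and 5.97 in air rats at 3 weeks. At 6 weeks they were 5.99, 6.32 and 6.57 in silica and 5.38, 5.66 and 5.89 in air rats, and at 12 weeks 6.29, 6.46 and 6.69 in silica and 5.70, 5.90 and 5.99 in air rats. The rats of the groups did not overlap, and the rises were 1.43-fold (0.51 ± 0.085), 1.56-fold (0.64 ± 0.085) and 1.5-fold (0.58 ± 0.085), with adjusted p of 6.86e-05, 7.52e-07 and 3.53e-06. Slc6a6, the taurine transporter, rose at 12 weeks alone by the call rule. Its levels were then 7.74, 7.91 and 8.34 in silica and 7.12, 7.42 and 7.64 in air rats, 1.5-fold apart (0.58 ± 0.10, adjusted p = 4.48e-05), while the changes at 3 and 6 weeks were 0.16 ± 0.10 and 0.18 ± 0.10. The difference of its change between 12 and 3 weeks was 0.42 ± 0.14 (adjusted p = 0.0807).

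Slc7a2 encodes CAT2, an arginine importer of activated macrophages, and stood close to the limit of detection. It was detected in 6 of 6 silica rats at each week, and in 6, 4 and 5 of 6 air rats at 3, 6 and 12 weeks. Levels at 12 weeks were 5.39, 5.71 and 6.02 in silica and 4.86, 5.09 and 5.37 in air rats, without overlap. It rose 1.38-fold at 6 weeks (0.47 ± 0.11, adjusted p = 0.00194) and 1.49-fold at 12 weeks (0.58 ± 0.11, 0.000116). At 3 weeks the change was 0.37 ± 0.11 (adjusted p = 0.0182), a call lost without silica replicate 6 (0.0588) and under median scaling (0.0659). Slc66a1, which exports cationic amino acids from lysosomes, rose at all weeks. Silica rats ran from 6.19 to 6.61 at 3 weeks, against 5.82 to 6.34 in air rats, and from 6.38 to 6.86 against 5.95 to 6.33 at 12 weeks. Its changes were 0.36 ± 0.090, 0.39 ± 0.090 and 0.42 ± 0.090 (adjusted p = 0.00614, 0.00165 and 0.000566), with the groups apart at 6 and 12 weeks. Slc7a1, the main arginine importer of resting cells, was detected in 0 to 2 rats of each group and was not called.

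Of 15 tested genes of arginine, amino acid and glutathione metabolism outside the family 3, 2 and 2 were higher and 1 was lower at 3, 6 and 12 weeks, beside 13.6%, 17.3% and 25.9% of all genes called. Arg1, the arginase of alternatively activated macrophages, rose by 0.64, 0.90 and 0.87, while Ass1, which resynthesises arginine from citrulline, fell, with changes of -0.35, -0.50 and -0.40 at 3, 6 and 12 weeks. Arg2, the mitochondrial arginase, rose by 0.45 at 3 weeks and 0.33 at 6 weeks. Phgdh, the first enzyme of serine synthesis, rose by 0.59 at 3 weeks. The cystine carrier gene Slc7a11 was detected on no array.

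Carriers of neutral amino acids and of glutamate rose by less. Slc1a5 encodes ASCT2, a glutamine and serine exchanger. It rose by 0.38 ± 0.090, 0.31 ± 0.090 and 0.33 ± 0.090 at 3, 6 and 12 weeks (adjusted p = 0.00383, 0.0142 and 0.00658), with 8.04, 8.15 and 8.38 in silica and 7.70, 7.87 and 8.04 in air rats at 6 weeks, apart. Under median scaling the calls at 6 and 12 weeks were lost (0.133 and 0.153). Slc38a1, the glutamine carrier SNAT1, rose at 12 weeks, with 6.66, 6.71 and 6.79 in silica and 6.20, 6.43 and 6.51 in air rats, apart (0.32 ± 0.052, adjusted p = 1.73e-05). Its smaller rise at 6 weeks (0.18 ± 0.052, 0.0139) was lost under median scaling (0.126). Slc7a6 encodes y+LAT2, a close relative of Slc7a7. It rose at 6 weeks (0.31 ± 0.072, adjusted p = 0.00205), with 8.70, 8.94 and 9.12 in silica and 8.45, 8.61 and 8.76 in air rats. Its call at 3 weeks was lost without air replicate 1 (0.0638), silica replicate 4 (0.0519) or silica replicate 6 (0.0699), and its call at 12 weeks without any of 8 of the 12 arrays, with adjusted p up to 0.121.

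At 12 weeks Slc1a1, a glutamate carrier, was higher in all silica rats, with 11.12, 11.16 and 11.17 in silica and 10.94, 10.97 and 11.02 in air rats (0.18 ± 0.033, adjusted p = 0.000119), a call lost under median scaling (0.262). Slc7a5, the LAT1 carrier of large neutral amino acids, rose at 12 weeks by 0.31 ± 0.084 (adjusted p = 0.00573, and 0.0604 under median scaling). Slc3a1, the heavy chain of the renal cystine carrier, rose at 12 weeks by 0.32 ± 0.091 (adjusted p = 0.00951), with 5.12, 5.40 and 5.49 in silica and 4.78, 5.00 and 5.23 in air rats, and was detected in 6 silica and 5 air rats. Slc6a14, a broad importer of epithelia, was called at 12 weeks (0.28 ± 0.090, 0.0187), and the call was lost without silica replicate 2 (0.0665) or silica replicate 6 (0.0506) and under median scaling (0.255). Slc43a2 was called at 12 weeks (0.42 ± 0.14, 0.0284), with 5.55, 5.65 and 6.78 in silica and 5.17, 5.51 and 5.61 in air rats. Its highest silica rat was replicate 3, and the call was lost without it (0.122), without silica replicate 2 (0.0630), or without air replicate 2 (0.0534) or 4 (0.0759). The call of Slc16a10, an aromatic amino acid carrier, at 3 weeks (0.23 ± 0.066, 0.0167) was lost without air replicate 5 (0.0638). Weaker calls of Slc38a2 at 3 and 6 weeks, Slc7a5 and Slc1a1 at 6 weeks and Slc7a14 (lower) at 12 weeks were lost on leaving out any of 3 to 10 of the 12 arrays of the week.

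Slc38a5 encodes SNAT5, an exporter and importer of glutamine, asparagine and histidine, and was lower at every week. At 6 weeks its lowest, median and highest levels were 9.95, 10.09 and 10.27 in silica rats and 10.43, 10.56 and 10.63 in air rats, and at 12 weeks 10.21, 10.35 and 10.51 in silica and 10.64, 10.77 and 10.86 in air rats. The groups were apart at both weeks, 1.36-fold lower with silica at 6 weeks (-0.45 ± 0.064, adjusted p = 2.90e-06) and 1.33-fold lower at 12 weeks (-0.41 ± 0.064, 9.00e-06). At 3 weeks the change was -0.23 ± 0.064 (0.0118, and 0.359 under median scaling). Slc7a10, the Asc-1 carrier of alanine, serine and cysteine, was 1.29-fold lower at 12 weeks (-0.36 ± 0.066, adjusted p = 8.90e-05), with 9.09, 9.15 and 9.43 in silica and 9.45, 9.59 and 9.72 in air rats, apart. Its change at 6 weeks was -0.25 ± 0.066 (0.00549, and 0.155 under median scaling). At 3 weeks it was -0.20 ± 0.066 (0.0424), a call lost on leaving out any of 9 of the 12 arrays, with adjusted p up to 0.0912. Slc6a15, a branched-chain amino acid carrier known from neurons, was near background. It was detected in 1 silica rat and 5 air rats of 6 at 12 weeks, with levels of 4.62, 4.73 and 4.88 in silica and 4.86, 5.19 and 5.31 in air rats (-0.42 ± 0.082, adjusted p = 0.000242).

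**Figure D3:**
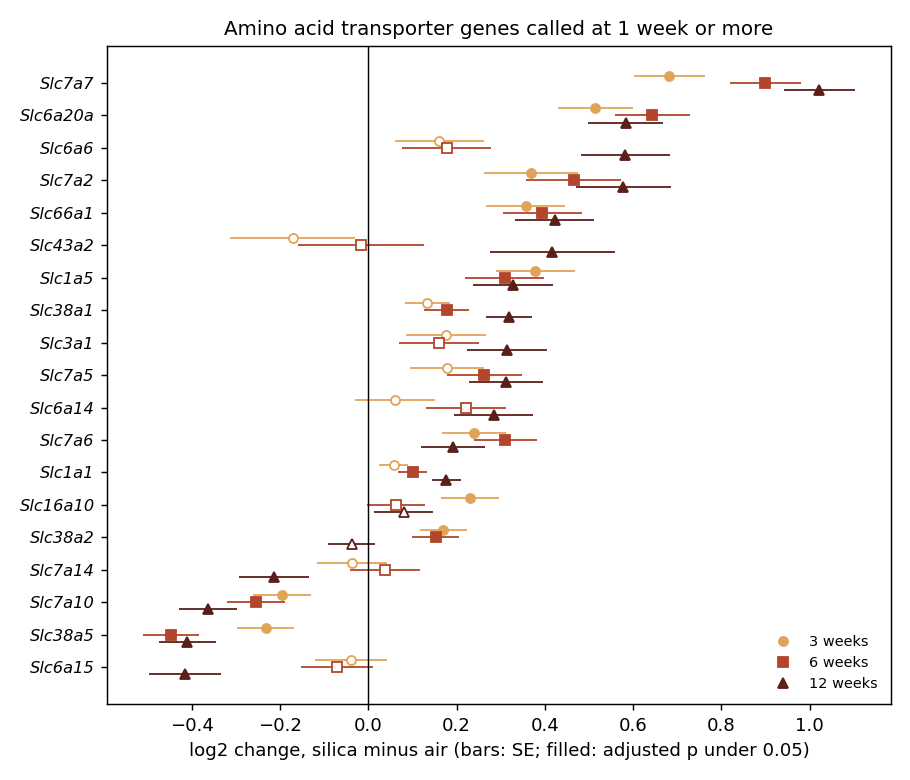
Change of the 19 amino acid transporter genes called at 1 week or more, as the log2 difference of silica minus air with its SE, at 3 weeks (circles), 6 weeks (squares) and 12 weeks (triangles). Filled symbols have an adjusted p under 0.05. Slc7a7 has the largest rise at each week, and Slc38a5 and Slc7a10 lie below 0 at every week.

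Transporters of iron, copper and zinc rose in part. Of 22 tested genes 3 were higher at 3 weeks, 6 at 6 weeks and 6 at 12 weeks, and 1 was lower at 6 weeks. The shares of all genes were 7.51%, 8.8% and 11.7% higher at 3, 6 and 12 weeks and 8.5% lower at 6 weeks. Slc11a2 encodes DMT1, which carries ferrous iron out of endosomes and into cells. Its lowest, median and highest levels at 12 weeks were 10.06, 10.17 and 10.41 in silica rats, against 9.41, 9.52 and 9.76 in air rats. At 6 weeks they were 9.85, 9.98 and 10.12 in silica and 9.29, 9.43 and 9.57 in air rats, and at 3 weeks 10.04, 10.17 and 10.30 in silica and 9.71, 9.86 and 10.02 in air rats. No silica rat overlapped an air rat at any week, and Slc11a2 rose 1.25-fold (0.32 ± 0.063, adjusted p = 0.000555), 1.49-fold (0.57 ± 0.063, 3.01e-08) and 1.56-fold (0.64 ± 0.063, 2.09e-09). Its relative Slc11a1, the NRAMP1 metal pump of macrophage phagosomes, rose by 0.37 ± 0.11, 0.36 ± 0.11 and 0.36 ± 0.11 (adjusted p = 0.0234, 0.0261 and 0.0191). The groups overlapped at each week, with 8.59, 8.63 and 8.86 in silica and 7.95, 8.35 and 8.65 in air rats at 12 weeks. The call at 3 weeks was lost without air replicate 5 (0.0908) or silica replicate 3 (0.0541), that at 12 weeks without air replicate 3 (0.0725) and under median scaling (0.125), and that at 6 weeks without any of 6 of the 12 arrays, with adjusted p up to 0.0949.

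Slc40a1 encodes ferroportin, the iron exporter, and was lower at 6 weeks, with 8.33, 8.41 and 8.64 in silica and 8.63, 8.73 and 8.86 in air rats (-0.28 ± 0.076, adjusted p = 0.00851, and 0.0638 under median scaling). Its changes at 3 and 12 weeks were -0.21 ± 0.076 (adjusted p = 0.0579) and -0.090 ± 0.076 (0.419). Slc48a1, a haem transporter of lysosomes, was not called, with changes of -0.24 ± 0.10, -0.15 ± 0.10 and 0.23 ± 0.10. Both copper transporters rose. Slc31a2, which resides in endosomes, had 6.79, 6.81 and 7.12 in silica and 6.30, 6.39 and 6.53 in air rats at 12 weeks (0.48 ± 0.081, adjusted p = 2.77e-05) and 7.36, 7.41 and 7.63 in silica and 6.85, 7.02 and 7.18 in air rats at 6 weeks (0.43 ± 0.081, 0.000217), apart at both weeks. At 3 weeks 1 silica rat, replicate 4, lay at 6.22 below all air rats, and the call (0.28 ± 0.081, 0.0173) was lost without silica replicate 5 (0.0578). Slc31a1, the copper importer of the plasma membrane, rose by 0.20 ± 0.053 at 6 weeks and 0.21 ± 0.053 at 12 weeks (adjusted p = 0.00619 and 0.00292, and 0.110 and 0.118 under median scaling).

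Among zinc carriers, the importers Slc39a2 and Slc39a4 rose at 6 weeks by 0.32 ± 0.089 (adjusted p = 0.0102) and 0.23 ± 0.067 (0.0138). Under median scaling both were lost (0.0603 and 0.0861). Levels of Slc39a2 at 6 weeks were 9.57, 9.80 and 10.09 in silica and 9.13, 9.59 and 9.77 in air rats, with overlap. The call of Slc39a2 at 12 weeks (0.24 ± 0.089, 0.0409) was lost on leaving out any of 7 of the 12 arrays, and that of Slc30a7, which loads zinc into the Golgi apparatus, at 12 weeks (0.20 ± 0.068, 0.0311) on leaving out any of 6, with adjusted p up to 0.136 and 0.0972. Slc39a8, an importer of zinc and manganese, was not called, with changes of 0.073 ± 0.069, 0.12 ± 0.069 and 0.16 ± 0.069. Among other genes of iron, zinc and haem handling 8 of 18 tested genes were higher at 3 weeks, 6 at 6 weeks and 7 at 12 weeks, and 1 was lower at 12 weeks, beside 7.51%, 8.8% and 11.7% of all genes higher. Lcn2, which binds siderophores, rose by 1.87, 3.03 and 2.59, and the metal-binding metallothionein Mt1 by 0.87, 0.86 and 1.01. Hmox1, which breaks down haem, rose by 0.49, 0.79 and 0.82, and transferrin (Tf), which carries iron in plasma, by 0.47, 0.68 and 0.74.

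Of 5 tested phosphate transporters 1 was higher at 3 weeks and 2 at 6 weeks, beside 7.51% and 8.8% of all genes. At 12 weeks 0 were called by limma, where 1 had an unadjusted p under 0.05. Slc34a2 encodes NaPi-IIb, by which type II cells take phosphate from the airspace, and whose human defect causes calcium phosphate stones in the alveoli. At 3 weeks its lowest, median and highest levels were 13.19, 13.27 and 13.37 in silica and 12.89, 13.04 and 13.18 in air rats, apart, and it rose 1.18-fold (0.24 ± 0.051, adjusted p = 0.00151). At 6 weeks they were 12.84, 12.96 and 13 in silica and 12.66, 12.75 and 12.84 in air rats, with 1 air rat within the range of the silica rats (0.19 ± 0.051, 0.00870). At 12 weeks the groups overlapped, with 12.92, 13.10 and 13.21 in silica and 12.87, 13.01 and 13.10 in air rats, and the change of 0.085 ± 0.051 was not called (adjusted p = 0.230). The difference of its change between 12 and 3 weeks was -0.15 ± 0.072 (adjusted p = 0.206). The call of Slc20a1, a phosphate importer of most cells, at 6 weeks (0.16 ± 0.057, 0.0470) was lost on leaving out any of 8 of the 12 arrays, and Slc20a2 was not called, with changes of 0.0026 ± 0.059, -0.076 ± 0.059 and 0.13 ± 0.059. Slc34a3, known from kidney, had the largest measured change of the class and was not called, with 5.72, 6.11 and 6.57 in silica and 6.11, 6.33 and 6.86 in air rats at 12 weeks (-0.30 ± 0.18, adjusted p = 0.239).

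Of 11 tested transporters of glucose and other sugars 3 were higher at 3 weeks, 1 at 6 weeks and 0 at 12 weeks. For all genes these shares were 7.51%, 8.8% and 11.7%. Slc37a1, a glucose-6-phosphate carrier of the endoplasmic reticulum, rose at 6 weeks, with 6.57, 6.70 and 6.94 in silica and 6.16, 6.33 and 6.56 in air rats, apart (0.39 ± 0.089, adjusted p = 0.00157). The calls at 3 weeks were those of Slc37a1 (0.27 ± 0.089, 0.0385), the fructose transporter Slc2a5 (0.26 ± 0.083, 0.0311) and the sugar carrier Slc50a1 (0.23 ± 0.068, 0.0209). The call of Slc50a1 was lost without air replicate 5 (0.0700), silica replicate 3 (0.0505) or silica replicate 6 (0.0536), and the other two were lost on leaving out any of 7 and of 6 of the 12 arrays. The facilitated glucose transporters Slc2a3 and Slc2a6 were not called at any week, with changes between -0.11 and 0.056. Slc2a3 stood close to the limit of detection, found in 2 silica and 3 air rats of 6 at 12 weeks. The probe of Slc2a1, the glucose transporter GLUT1, was detected on 2 arrays and was not tested. At 12 weeks 2 genes of the class had an unadjusted p under 0.05, of which Slc2a5 had an adjusted p of 0.0693.

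Of 12 tested carriers of chloride, bicarbonate and sulphate 1 was higher at 3 weeks, 1 was lower at 6 weeks, and 2 were higher and 2 lower at 12 weeks, beside 13.6%, 17.3% and 25.9% of all genes called. Slc12a4 encodes KCC1, which exports potassium with chloride as cells lose volume. At 12 weeks its levels were 7.68, 8.20 and 8.34 in silica and 8.46, 8.54 and 8.62 in air rats, apart, and it was 1.32-fold lower with silica (-0.40 ± 0.073, adjusted p = 8.95e-05). The lowest silica rat was replicate 3, and the call held without it. At 6 weeks the groups were also apart, with 7.56, 7.65 and 7.69 in silica and 7.71, 7.82 and 7.91 in air rats, though the change of -0.18 ± 0.073 was not called (adjusted p = 0.0951). Slc26a3, a chloride and bicarbonate exchanger of the gut, stood close to the limit of detection. It was lower at 6 weeks (-0.35 ± 0.098, adjusted p = 0.0110), detected in 3 silica and 6 air rats of 6, with 4.70, 4.88 and 4.96 in silica and 4.96, 5.22 and 5.56 in air rats. At 12 weeks it was higher (0.27 ± 0.098, 0.0412), detected in 6 silica and 3 air rats, a call lost on leaving out any of 8 of the 12 arrays. Slc12a8 was lower at 12 weeks (-0.25 ± 0.083, 0.0260), and the call was lost without air replicate 1 (0.0545), air replicate 5 (0.0688), silica replicate 2 (0.0910) or silica replicate 6 (0.0742). The calls of the bicarbonate carriers Slc4a4 (higher at 12 weeks) and Slc4a8 (higher at 3 weeks) were lost on leaving out any of 8 and of 7 of the 12 arrays. Levels of Slc4a4 at 12 weeks were 5.73, 5.99 and 6.51 in silica and 5.42, 5.61 and 6.10 in air rats, with overlap. The sulphate carrier Slc26a2, the chloride carrier Slc26a9 and the iodide carrier Slc5a5 were not called, with changes between -0.15 and 0.062. These genes stood close to the limit of detection, which limits what their small changes show. Slc26a2 was detected in 0 silica and 0 air rats at 12 weeks, Slc5a5 in 0 silica rats and 1 air rat at 6 weeks, and Slc26a9 in 2 silica and 3 air rats at 3 weeks. Among 11 tested genes of airway ion and acid transport outside the family 1, 1 and 3 were higher and 1, 2 and 3 lower at 3, 6 and 12 weeks. For all genes the shares were 7.51%, 8.8% and 11.7% higher and 6.08%, 8.5% and 14.2% lower. Atp1b1, a subunit of the sodium pump, rose by 0.35, 0.32 and 0.27, and Car4, a carbonic anhydrase of lung capillaries, fell, with changes of -0.34, -0.27 and -0.43.

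Slc47a1 had the largest rise among transporters of organic ions. It encodes MATE1, which expels organic cations and drugs in exchange for protons. Its lowest, median and highest levels at 3 weeks were 7.27, 7.41 and 7.48 in silica rats and 6.24, 6.51 and 6.75 in air rats. At 6 weeks they were 6.70, 7.21 and 7.30 in silica and 5.67, 6.12 and 6.38 in air rats, and at 12 weeks 7.02, 7.25 and 7.64 in silica and 6.14, 6.58 and 6.84 in air rats. The groups were apart at every week, with rises of 1.84-fold (0.88 ± 0.12, adjusted p = 6.63e-06), 1.98-fold (0.99 ± 0.12, 2.57e-07) and 1.72-fold (0.78 ± 0.12, 1.13e-05). Of the 15 tested genes of the class 1, 3 and 1 were higher and 1 was lower at each week. Among all genes 7.51%, 8.8% and 11.7% were higher and 6.08%, 8.5% and 14.2% lower. The lower gene of the class was Slc22a5, the carnitine transporter OCTN2, with 9.29, 9.44 and 9.51 in silica and 9.55, 9.65 and 9.73 in air rats at 6 weeks, apart (-0.22 ± 0.054, adjusted p = 0.00267). It was also apart at 3 weeks (-0.23 ± 0.054, 0.00297, and 0.0854 under median scaling). Its call at 12 weeks (-0.17 ± 0.054, 0.0187) was lost without air replicate 3 (0.0512) or silica replicate 2 (0.0626). At 6 weeks Slc17a9, which loads ATP into vesicles, was higher (0.30 ± 0.082, 0.00959, and 0.0561 under median scaling), and the call of Slc22a17 was lost on leaving out any of 7 of the 12 arrays.

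Slc29a1 had the largest fall among the called genes. It encodes ENT1, by which red cells, endothelium and other cells take up adenosine. At 12 weeks its lowest, median and highest levels were 9.89, 10.15 and 10.42 in silica rats and 10.55, 10.69 and 10.82 in air rats, and at 6 weeks 9.83, 9.89 and 10.05 in silica and 10.08, 10.14 and 10.27 in air rats. The groups were apart at both weeks, 1.45-fold lower with silica at 12 weeks (-0.54 ± 0.068, adjusted p = 2.93e-07) and 1.19-fold lower at 6 weeks (-0.25 ± 0.068, 0.00806, and 0.215 under median scaling). At 3 weeks they overlapped and the change of -0.15 ± 0.068 was not called (adjusted p = 0.153). The lysosomal relative ENT3, encoded by Slc29a3, went the other way. It rose by 0.28 ± 0.069 at 3 weeks (adjusted p = 0.00584), with 9.69, 9.83 and 9.91 in silica and 9.29, 9.53 and 9.71 in air rats, and by 0.29 ± 0.069 at 6 weeks (0.00270, and 0.0578 under median scaling). Its change at 12 weeks was 0.058 ± 0.069 (adjusted p = 0.586).

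Nucleotide sugar carriers, which supply the Golgi apparatus for glycosylation, share a class with the nucleoside carriers. In this class 4, 4 and 1 of 24 tested genes were higher and 1 was lower at each week. The shares of all genes were 7.51%, 8.8% and 11.7% higher and 6.08%, 8.5% and 14.2% lower. Slc35c1, the GDP-fucose carrier, rose at 6 weeks, with 7.14, 7.29 and 7.47 in silica and 6.87, 7.03 and 7.12 in air rats, apart (0.28 ± 0.060, adjusted p = 0.00103), and at 3 weeks (0.22 ± 0.060, 0.0105, and 0.0621 in a model of that week alone). Slc35b4, a carrier of UDP-xylose and UDP-N-acetylglucosamine, rose at 6 weeks (0.25 ± 0.056, 0.00164) and at 12 weeks, when silica rats ran from 7.70 to 7.79 and air rats from 7.45 to 7.60 (0.26 ± 0.056, 0.000820, and 0.0601 under median scaling). Slc35d2 rose at 6 weeks (0.19 ± 0.052, 0.00770, and 0.131 under median scaling). The calls of Slc35b4, Slc35c2 and, as a fall, the acetyl-CoA carrier Slc33a1 at 3 weeks were lost on leaving out any of 8 or 9 of the 12 arrays.

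All 3 tested peptide transporters were called at 1 week or more, against 35.8% of all genes. Slc15a3, a lysosomal carrier of histidine and di- and tripeptides in immune cells, rose at every week. At 3 weeks its levels were 8.90, 8.98 and 9.11 in silica and 8.36, 8.74 and 8.79 in air rats, apart, with the lowest air value in replicate 5. The changes were 0.31 ± 0.069, 0.27 ± 0.069 and 0.29 ± 0.069 (adjusted p = 0.00213, 0.00549 and 0.00153), and the calls at 6 and 12 weeks were lost under median scaling (0.0956 and 0.147). Its relative Slc15a4 rose by 0.19 ± 0.053 at 6 weeks (adjusted p = 0.00828), with 10.17, 10.24 and 10.29 in silica and 9.95, 10.07 and 10.11 in air rats, apart, and by 0.20 ± 0.053 at 12 weeks (0.00558, and 0.273 under median scaling). Slc15a2 encodes PEPT2, which takes peptides up from the fluid of the airways. It was lower at 12 weeks, with 6.09, 6.26 and 6.49 in silica and 6.44, 6.53 and 6.60 in air rats (-0.25 ± 0.061, adjusted p = 0.00291), and its changes at 3 and 6 weeks were -0.0037 ± 0.061 and -0.011 ± 0.061.

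**Figure D4:**
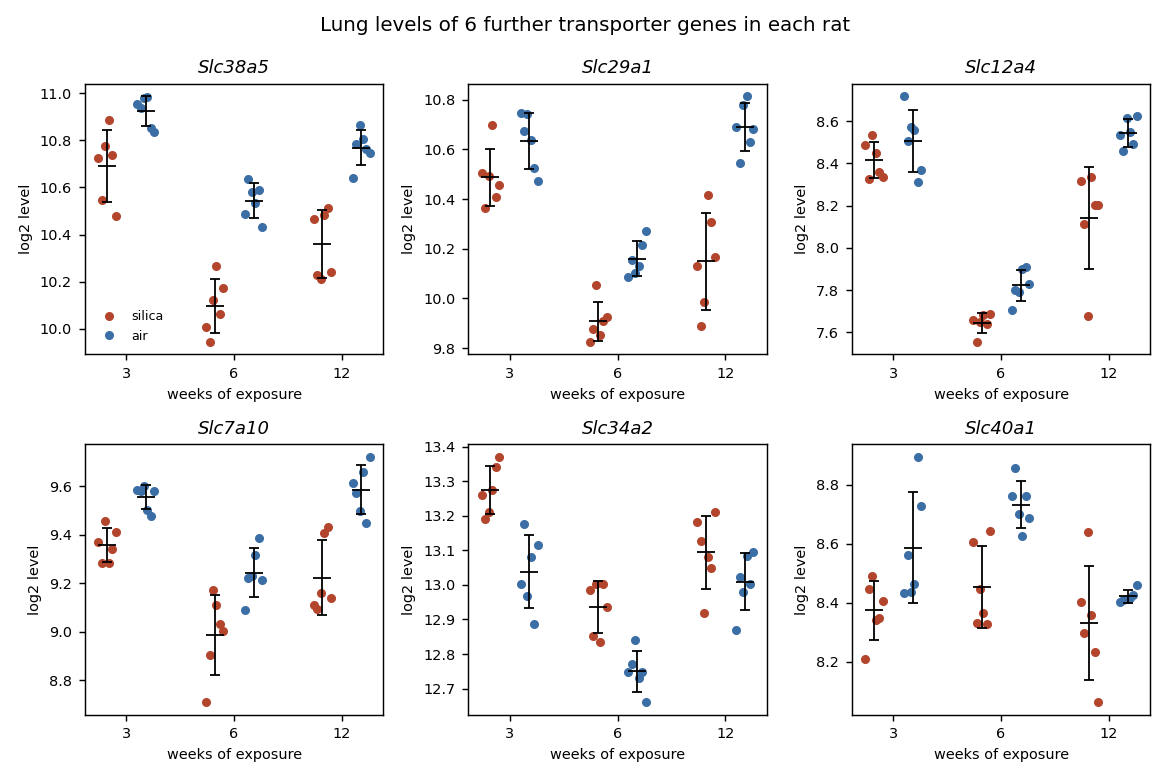
Log2 level of 6 further transporter genes in each rat (points), with the group mean and SD (bars), for silica (red, left) and air (blue, right) rats at 3, 6 and 12 weeks, n = 6 per group. Slc38a5 and Slc29a1 lie lower in all silica rats at 6 and 12 weeks and Slc12a4 at 6 and 12 weeks, Slc7a10 at 3 and 12 weeks. Slc34a2 lies higher in all silica rats at 3 weeks, and Slc40a1 overlaps at every week.

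Of 26 tested mitochondrial carriers 1, 1 and 4 were higher and 1, 0 and 1 lower at 3, 6 and 12 weeks. For all genes the shares were 7.51%, 8.8% and 11.7% higher and 6.08%, 8.5% and 14.2% lower. Slc25a5 encodes ANT2, an exchanger of ADP and ATP. It rose at 12 weeks, with 12.32, 12.43 and 12.56 in silica and 12.06, 12.19 and 12.32 in air rats (0.24 ± 0.051, adjusted p = 0.000593), and its call at 6 weeks (0.16 ± 0.051, 0.0283) was lost without air replicate 1 (0.0524), air replicate 3 (0.0670), silica replicate 3 (0.0548) or silica replicate 4 (0.0761). Slc25a1, the citrate carrier that feeds lipid synthesis, rose at 12 weeks (0.26 ± 0.069, 0.00515, and 0.0798 under median scaling). Slc25a29, a carrier of basic amino acids, was lower at 12 weeks, with 6.85, 7.06 and 7.24 in silica and 7.17, 7.38 and 7.55 in air rats (-0.35 ± 0.073, adjusted p = 0.000429). The call of Slc25a24 at 12 weeks (0.32 ± 0.11, 0.0242) was lost without air replicate 3 (0.0635), silica replicate 2 (0.0604) or silica replicate 3 (0.0813), and that of Slc25a38 at 3 weeks on leaving out any of 8 of the 12 arrays. Slc25a52 had the largest measured change of the class, 0.37 ± 0.25 at 12 weeks (adjusted p = 0.291), and was not called. Its levels were 5.06, 5.30 and 7.36 in silica and 5.10, 5.26 and 5.37 in air rats, and the highest silica rat was replicate 3.

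Slc6a4, the serotonin transporter of lung endothelium and platelets, was lower at 6 weeks, with 8.37, 8.46 and 8.60 in silica and 8.64, 8.76 and 8.91 in air rats, apart (-0.29 ± 0.068, adjusted p = 0.00237, and 0.120 under median scaling), and at 12 weeks (-0.23 ± 0.068, 0.0112, and 0.0518 in a model of that week alone). Slc6a2, the noradrenaline transporter, was lower at 12 weeks, with 6.72, 6.91 and 7.08 in silica and 7.05, 7.36 and 7.48 in air rats (-0.37 ± 0.10, adjusted p = 0.00559). These were the 2 genes called at any week of 4 tested neurotransmitter transporters, against 35.8% of all genes. The shares of all genes lower were 8.5% at 6 weeks and 14.2% at 12 weeks. A link of these falls to the endothelial marker sums given above was not tested. Slc66a2 was lower at 12 weeks, with 9.74, 10.19 and 10.36 in silica and 10.44, 10.51 and 10.63 in air rats, apart (-0.37 ± 0.071, 0.000195), and Slc4a1ap, an adaptor protein gene named after a carrier, by -0.14 ± 0.043 (0.0138, and 0.0612 under median scaling).

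Of 9 tested exchangers of sodium, calcium and protons 2 were higher at 6 weeks, beside 8.8% of all genes. None was called at 3 or 12 weeks by limma, where 1 and 0 had an unadjusted p under 0.05. The proton exchanger gene Slc9a5 had 5.62, 5.99 and 6.29 in silica and 5.09, 5.58 and 5.75 in air rats at 6 weeks (0.42 ± 0.10, adjusted p = 0.00432), and Slc8b1, the calcium exchanger of mitochondria, rose by 0.21 ± 0.056 (0.00751, and 0.0517 under median scaling). Of 10 tested vitamin and choline carriers 0, 1 and 2 were higher, and 1 of 4 fatty acid carriers was higher at 6 weeks. The shares of all genes higher were 7.51%, 8.8% and 11.7% at 3, 6 and 12 weeks. The called carriers were Slc5a6, Slc23a1, Slc46a3 and Slc27a3. Each call was lost on leaving out any of 3 to 9 of the 12 arrays of its week. Slc27a3, a fatty acid carrier, had 4.91, 4.99 and 5.16 in silica and 4.60, 4.79 and 4.88 in air rats at 6 weeks, apart, and was detected in 6 silica rats and 1 air rat. Slc23a1, a vitamin C carrier, had 7.12, 7.50 and 7.82 in silica and 6.88, 7.13 and 7.33 in air rats at 12 weeks, with overlap. Both annotated urea and ammonium carriers were below detection and were not tested.

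The silica effect on transporter genes was then compared between weeks. The change at 12 weeks differed from that at 3 weeks in 5 of the 192 genes, with 4 differences upward and 1 downward, against 2.86% of all genes (1.53% upward and 1.33% downward). Slc16a3 had the largest difference, 0.45 ± 0.11 (adjusted p = 0.0237), and it was lost without silica replicate 4 at 3 weeks (0.0508), without silica replicate 2 at 12 weeks (0.0531) and under median scaling (0.28, adjusted p = 0.134). For Slc11a2 the difference was 0.32 ± 0.089 (0.0443), lost on leaving out any of 14 of the 24 arrays of the 2 weeks, with adjusted p up to 0.0940, and under median scaling (0.14, adjusted p = 0.483). For Slc29a1 it was -0.39 ± 0.097 (0.0273), lost on leaving out any of 6 arrays, with adjusted p up to 0.0621, and with array weights (0.0743). Slc25a11, the oxoglutarate carrier of mitochondria, changed by -0.17 ± 0.056 at 3 weeks and by 0.18 ± 0.056 at 12 weeks, a difference of 0.34 ± 0.080 (0.0227) that held without any single array and was lost under median scaling (0.19, adjusted p = 0.226). Slc30a7 changed by -0.19 ± 0.068 and 0.20 ± 0.068, a difference of 0.39 ± 0.096 (0.0285), lost on leaving out any of 4 arrays, with adjusted p up to 0.0677, and under median scaling (0.0768).

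The call count between 12 and 3 weeks depended on single arrays. It was 1 without silica replicate 4 at 3 weeks or silica replicate 2 at 12 weeks, 2 without air replicate 4 at 12 weeks, and 3 without air replicate 3, air replicate 6 or silica replicate 3 at 12 weeks. It was 9 without air replicate 1 at 3 weeks or silica replicate 5 at 12 weeks and 10 without silica replicate 4 at 12 weeks. No transporter gene was called between 6 and 3 weeks or between 12 and 6 weeks by limma (0.0771% and 0.011% of all genes). An unadjusted limma p under 0.05 was found in 14 and 29 of the 192 genes, beside 752 and 1165 of all 9078 tested genes.

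**Figure D5:**
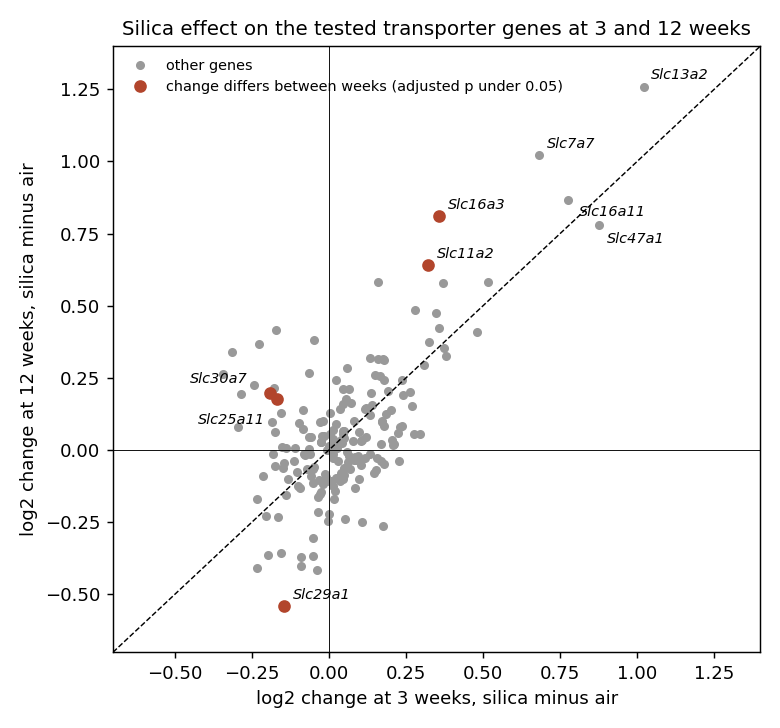
Log2 change of silica minus air at 12 weeks against that at 3 weeks for the 192 tested transporter genes (points), with the line of equal change (dashed). The 5 genes in red have changes that differ between the weeks at an adjusted p under 0.05, Slc16a3, Slc11a2, Slc25a11 and Slc30a7 above the line and Slc29a1 below it.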

How the data were processed

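Whole-lung RNA of 36 rats was measured on 36 Illumina BeadChip arrays, 6 rats in each of 6 groups, as the sample labels give them. The deposited table gives a raw probe intensity and a detection p-value per probe and array, per the file headers, and the authors also deposited log2 values per array, with column medians of 7.1 to 7.12, used only as an alternative; their scale and centring are not stated in the file. BeadStudio, lumi and limma are listed, without version or order, per the submitters' processing notes. Chip and slide positions are not given in the sources used here, so no batch could be fitted. Nothing in the labels ties rats of different groups to each other, so replicate numbers name different rats and pair none.

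Intensities were corrected with a normal-exponential background estimated from the detection p-values (limma 3.58.1, R 4.3.3), using the 21204 probes whose p-value was a multiple of 1/825, within 0.01 of a step. The other 588 were left out of the estimate, a choice made after the data were examined. The background had a median mean of 47.3 and SD of 8.59. An offset of 16, quantile normalisation over all probes and log2 followed. Probes were kept when detected at a p-value under 0.05 on at least 6 arrays. Genes were named from the array annotation through RefSeq gene identifiers, and the brightest detected probe of a gene was taken. In none of the 4 transporter genes with 2 probes were both probes detected. One linear model of 6 group means (30 residual degrees of freedom) gave silica minus air at each week and the differences between weeks, with Benjamini-Hochberg adjustment over 9078 genes. After the fit, the model was also run on simulated data with the gene means and SDs of these arrays. The simulated noise was independent between genes and arrays, so it does not cover arrays that stand apart as a whole. Alternatives were other backgrounds, scalings, filters and weights, a model of each week alone, a replicate block, and leaving out each array in turn.

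The transporter genes, their substrate classes and all gene lists were chosen with earlier results of these data known. Transporter genes were named when called in any comparison or held on a list fixed with the design, with per-rat ranges for the 30 largest changes and the leader of each class. Ranges of Slc1a1, Slc3a1, Slc3a2, Slc7a6, Slc15a2, Slc15a4, Slc22a5, Slc25a5, Slc29a3, Slc34a2, Slc35b4, Slc35c1, Slc38a1, Slc40a1 and Slc6a4 were added after their values were seen. Genes of related pathways were given as counts with values for at most 4 per list.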

Additional observations from a re-analysis of the deposited data

Results flagged for a closer look

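In 13 of the 204 groups of 6 rats examined, 1 rat lay far from the other 5 by Dixon's test for an outlier, and chance alone flags about 1 group in 20. Of these values 5 belong to silica replicate 3 at 12 weeks, an array that stood apart over all probes. Its Slc12a4 level was 7.68 (nearest other rat 8.11), its Slc16a11 level 8.57 (8.93) and its Slc9a5 level 6.07 (6.46), all low. Its Slc25a52 level was 7.36 (5.47) and its Slc43a2 level 6.78 (6.01), both high. Air replicate 5 at 3 weeks, which also stood apart, held 3 of them. Its Slc15a3 level was low at 8.36 (8.71), and its Slc25a52 level of 6.68 (5.27) and Slc4a4 level of 6.36 (5.77) were high.

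Air replicate 4 at 3 weeks was high in Slc1a5 at 8.51 (8.14) and in Slc9a5 at 6.30 (6.07). Silica replicate 4 at 3 weeks was low in Slc31a2 at 6.22 (6.73). Air replicate 1 at 6 weeks was low in Slc4a4 at 5.48 (6.12), and air replicate 2 at 12 weeks was low in Slc6a15 at 4.86 (5.17).

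The silica effect differed between 12 and 3 weeks by the test of the difference itself in 5 genes, by 0.45 for Slc16a3, 0.32 for Slc11a2, 0.34 for Slc25a11, 0.39 for Slc30a7 and -0.39 for Slc29a1 on the log2 scale. None of the 5 held under every alternative run.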

How the results depend on the processing

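Of the 3112 values that called changes took under the alternatives 0 had the other sign, and of the 2977 values of changes not called 101 did. The alternatives reuse the arrays in which the calls were made, so these counts are no independent check of direction. Under every alternative run 14 of the 33 calls at 3 weeks, 20 of 45 at 6 weeks and 25 of 50 at 12 weeks held, and 0 of the 5 differences between 12 and 3 weeks did. Scaling to a common median gave 0 lower at 3 weeks (5 as reported), 19 higher and 3 lower at 6 weeks (37 and 8), 21 higher at 12 weeks (36) and 1 difference between 12 and 3 weeks (5). The number lower at 3 weeks was 3 with array weights and 3 with the arrays of that week alone. Between 12 and 6 weeks 1 gene was called with array weights and 1 with a trended, robust prior, against 0. Why these counts moved was not tested. Leaving out 1 array gave 20 to 30 genes higher and 2 to 5 lower at 3 weeks, 28 to 36 and 7 to 8 at 6 weeks, 26 to 35 and 11 to 15 at 12 weeks, 1 to 10 differences between 12 and 3 weeks and 0 to 1 between 12 and 6 weeks. With the replicate number as a block, 27 genes were higher and 7 lower at 3 weeks, 37 and 8 at 6 weeks and 33 and 13 at 12 weeks. Silica and air rats of the same number had correlations of deviations between -0.272 and 0.444, with 7 of 18 pairs over 0.1. Over all groups the median was -0.0163 for rats of the same number and -0.00965 for other pairs. The numbers were not taken as pairs because nothing in the labels ties the rats to each other. Signal over background limits the called genes Slc4a8 at 3 weeks, Slc7a2, Slc27a3 and Slc26a3 at 6 weeks, and Slc3a1, Slc6a15, Slc7a14, Slc7a2 and Slc26a3 at 12 weeks, which were not detected in every rat compared.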
